A study of Homo sapiens with 38 samples.

Results

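The response of HCT116 cells to a single siRNA duplex against VPS4B, siVPS4B#2, was measured against the non-targeting duplex siCTRL#1. The comparison used every library labelled siVPS4B#2 (4 libraries) and every library labelled siCTRL#1 (5 libraries), 9 of the 38 libraries of the series, and covered all 12627 listed genes in both directions. HCT116 is an established human colorectal carcinoma line. RNA was taken 72 h after transfection. Control cells received 60 nM siCTRL#1, and siVPS4B#2 cells received 30 nM siVPS4B#2 with 30 nM siCTRL#1, so that the siRNA total was the same and both groups carried siCTRL#1. The other conditions were untransfected cells (NT), the second non-targeting duplex siCTRL#2, the duplexes siVPS4A#1, siVPS4A#2 and siVPS4B#1, and 2 pairs. The pair siVPS4A+B#1 joined siVPS4A#2 to siVPS4B#1, and siVPS4A+B#2 joined the duplex studied here to siVPS4A#1. Every condition had 4 libraries except siCTRL#1 and siVPS4A#1, which had 5. Silencing by siRNA is transient and partial, and all libraries came from 1 cell line. The labels tie each replicate number to a batch letter, and siCTRL#1 replicate 5 had no siVPS4B#2 library in its batch.

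VPS4B and its paralog VPS4A are AAA ATPases that use ATP to take apart ESCRT-III filaments. The ESCRT machinery cuts membrane necks from inside, in the sorting of receptors into multivesicular endosomes, in abscission at the end of cell division, in resealing of the nuclear envelope and in repair of the plasma membrane. VPS4B lies on chromosome 18q, an arm that is often lost in colorectal cancer, and VPS4A then carries the shared function.

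Levels are given as TMM-scaled reads per 1000000 (rpm; TMM corrects for library composition), in the order of replicates 1 to 4 or 1 to 5. Fold changes are differences of log2(rpm + 1), which draws those of genes with few reads toward 0. Adjusted p-values are limma's, adjusted over the 12627 genes by the Benjamini-Hochberg method. A called gene is one that changed at least 1.5-fold with an adjusted p under 0.05, and raised, rose, lowered and fell are used of called genes. The 9 libraries held 5801458 to 10029811 reads, so that 3 reads, taken as the floor, stood for 0.299 to 0.517 rpm; such floors cover counting error only, because amplified reads are not independent molecules.

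Some libraries stood apart from their labels or were unusually alike. Replicates 1 and 4 of siCTRL#1 were near to each other. Over genes with at least 20 reads in both, chi-square per degree of freedom was 2.50 between these libraries, against 15.3 to 25.8 for 8 other siCTRL#1 pairs, 6.52 for replicates 2 and 5 and 15.9 to 31.8 for the 6 siVPS4B#2 pairs. Because counting error alone gives a value near 1, 2.50 does not show whether they are separate samples or repeats of 1 sample. Both were kept in the model, and counts are also given with them counted as 1 sample. The library labelled siCTRL#1 replicate 4 also went against its number: its residuals had a mean correlation of 0.32 with replicate 1 of the 8 other conditions and of -0.23 with their replicate 4, while siCTRL#1 replicate 5 had one of 0.28 with their replicate 4. Whether the labels of these libraries are right was not tested, and calls lost without siCTRL#1 replicate 4 are named or counted beside the lists. The library labelled siVPS4A#1 replicate 2 held 669257 reads, and its VPS4B level of 1.62 rpm was far below the 21.6 to 32.0 rpm of the other siVPS4A#1 libraries, which goes against a label that names no VPS4B duplex. Its chi-square per degree of freedom was 1.41 with siVPS4A+B#1 replicate 4, the lowest of all 703 pairs. With the other siVPS4A#1 libraries it was 20.1 to 22.1, although few reads lower all of these values. Whether its label is right was not tested. Counts that use siVPS4A#1 are also given without that library. It also entered the main fit of siVPS4B#2 against siCTRL#1, for which a fit to the compared libraries only is given as well.

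The targeted transcript fell in every siVPS4B#2 library. VPS4B (NM_004869; GRCh37 chr18:61056423-61089716, minus strand) stood at 23.8, 20.1, 16.4, 18.1 and 24.5 rpm in siCTRL#1 and at 0.94, 0.72, 1.05 and 1.55 rpm in siVPS4B#2. The siVPS4B#2 libraries held 6 to 16 VPS4B reads, 5.18% of the siCTRL#1 mean of 20.6 ± 3.51 rpm (SD, n = 5), and the groups did not overlap (log2 fold change -3.26, SE 0.36, adjusted p = 1.97e-07; exact permutation test, 2-sided, p = 0.0159, the smallest that 126 divisions of these 9 libraries allow). Under siVPS4B#1 the same transcript stood at 0.757, 0.677, 0.134 and 0.154 rpm, lower than under siVPS4B#2 in mean, with overlapping libraries (exact permutation p = 0.0571).

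The paralog was not called. VPS4A (NM_013245; GRCh37 chr16:69345253-69360842, plus strand) stood at 197, 172, 179, 191 and 206 rpm in siCTRL#1 and at 239, 223, 205 and 170 rpm in siVPS4B#2. These libraries overlapped (log2 fold change 0.08, SE 0.29, adjusted p = 0.909; exact permutation p = 0.238). Of the 17 ESCRT-III proteins and VPS4 cofactors listed, CHMP1B, an ESCRT-III subunit, was the only one called besides VPS4B itself. CHMP1B stood at 107, 89.2, 76.5, 107 and 96 rpm in siCTRL#1 and at 209, 182, 125 and 123 rpm in siVPS4B#2 (log2 fold change 0.70, SE 0.14, adjusted p = 0.00175). It was not called against the other controls, whose libraries overlapped siVPS4B#2 at 152, 125, 106 and 108 rpm in NT and 157, 123, 110 and 111 rpm in siCTRL#2. Of 20 genes of ESCRT-0, ESCRT-I, ESCRT-II and their partners limma called 0, although 5 had an unadjusted p under 0.05 and DESeq2 and edgeR each called 1 higher and 1 lower; TSG101, of ESCRT-I, had an adjusted p of 0.0442 with a log2 fold change of -0.48, under the fold required.

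Against siCTRL#1, 286 genes, 2.26% of those tested, were raised in siVPS4B#2 and 421, 3.33%, were lowered, or 5.6% in either direction. Changes were mostly modest: 44 of the raised and 81 of the lowered genes moved at least 2-fold, and over all genes the median log2 fold change was 0.0046. The raised genes drew fewer reads, with a median of 12.7 rpm in siCTRL#1 against 33.3 rpm for the lowered genes, and 164 of the 707 called genes had a mean under 10 rpm in both groups. The 4 siVPS4B#2 libraries all lay above the 5 siCTRL#1 libraries for 201 of the raised genes (1.59% of all genes), and all below them for 286 of the lowered genes (2.26%). Over all genes, called or not, the libraries did not overlap for 5.46% upward and 5.69% downward. Without siCTRL#1 replicate 4, 204 genes (1.62%) were raised and 299 (2.37%) lowered. When siCTRL#1 replicates 1 and 4 were counted as 1 sample and the replicate block was dropped, 146 genes were raised and 231 lowered, and when both were left out, 117 and 181. DESeq2 on the recovered reads called 394 and 609 genes and edgeR 373 and 566. A limma fit to the compared libraries only called 388 genes raised and 530 lowered.

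The number of changed genes differed with the control. Against NT, the same 4 libraries differed in 831 genes upward (6.58%) and 905 downward (7.17%), and against siCTRL#2 in 1463 (11.6%) and 1027 (8.13%). The non-targeting duplexes themselves differed from each other in 654 genes higher (5.18%) and 1292 lower (10.2%) in siCTRL#2 than in siCTRL#1, and siCTRL#1 differed from NT in 480 genes higher (3.8%) and 446 lower (3.53%). These comparisons share libraries, so the counts are set side by side only. A total of 100 genes were raised and 153 lowered against all 3 controls, of which 35 and 104 also differed in the same direction from siVPS4B#1.

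**Figure D1:**
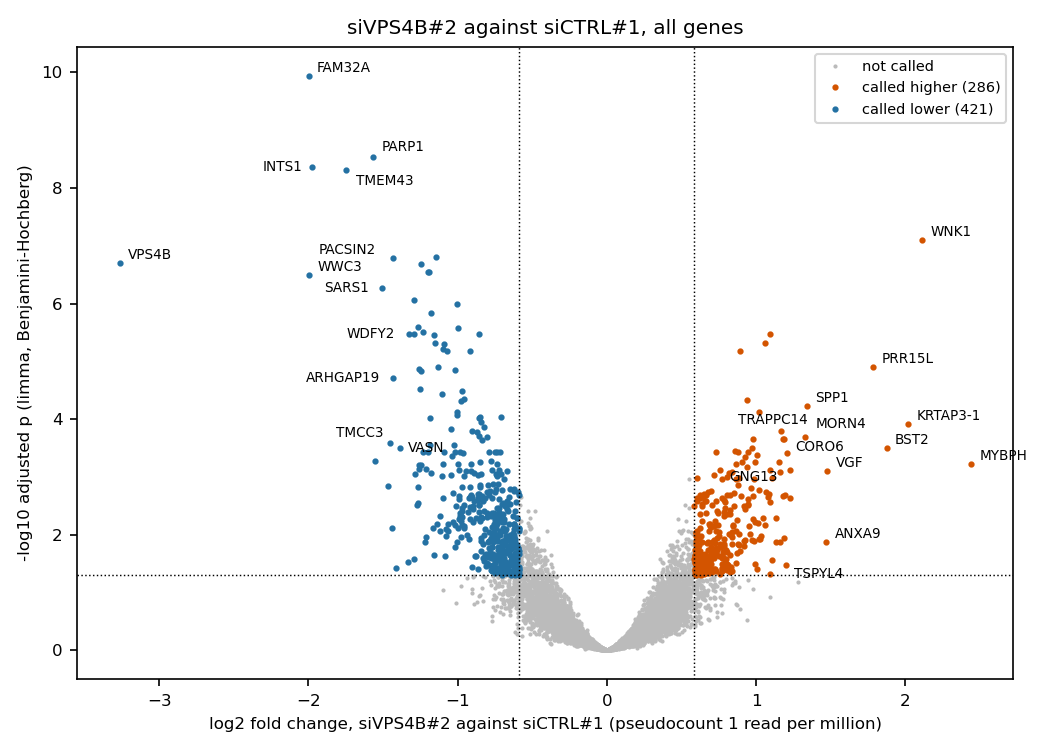
Each of 12627 genes in siVPS4B#2 against siCTRL#1, by log2 fold change (horizontal) and -log10 of the adjusted p (vertical), with the 286 raised genes in orange, the 421 lowered genes in blue, dotted lines at the thresholds and the named genes labelled. FAM32A, INTS1, PARP1 and TMEM43 stand highest on the lowered side and WNK1 on the raised side.

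The steepest falls besides VPS4B were in genes of differing function. FAM32A, a spliceosome component of the catalytic stage (GRCh37 chr19:16296191-16302857), stood at 39.5, 40.3, 41.2, 41.3 and 35.7 rpm in siCTRL#1 and at 8.46, 13.4, 7.92 and 8.25 rpm in siVPS4B#2 (log2 fold change -2.0, SE 0.16, adjusted p = 1.14e-10). It was lower in every siVPS4B#2 library than in any control library, NT included (49.4, 65, 61 and 59.8 rpm). INTS1, a scaffold subunit of the Integrator complex that ends transcription of small nuclear RNAs (chr7:1509913-1544025), stood at 102, 142, 129, 114 and 149 rpm in siCTRL#1 and at 30.9, 27.9, 30.5 and 31.4 rpm in siVPS4B#2 (log2 fold change -1.97, SE 0.18, adjusted p = 4.37e-09). The siVPS4B#2 libraries were nearly level with one another and lay far below the controls.

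PARP1, the poly(ADP-ribose) polymerase that senses DNA breaks (chr1:226547911-226595855), stood at 533, 486, 567, 535 and 492 rpm in siCTRL#1 and at 163, 226, 182 and 163 rpm in siVPS4B#2 (log2 fold change -1.57, SE 0.14, adjusted p = 2.96e-09). WWC3, a KIBRA family scaffold of Hippo signalling (chrX:9983294-10112514), stood at 9.37, 9.09, 8.79, 8.47 and 8.85 rpm in siCTRL#1 and 1.1, 1.65, 1.05 and 1.84 rpm in siVPS4B#2 (log2 fold change -2.0, SE 0.23, adjusted p = 3.26e-07). TMEM43, an inner nuclear membrane protein (chr3:14166515-14185180), stood at 50.7, 47.2, 52.4, 59 and 48.2 rpm and 16.6, 17.7, 13.4 and 12.6 rpm (log2 fold change -1.75, SE 0.16, adjusted p = 4.9e-09). In each of these genes no siVPS4B#2 library came near the lowest siCTRL#1 library.

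The remaining falls of the 12 largest were in SARS1, the cytosolic seryl-tRNA synthetase (-1.5), TMCC3 (-1.45), PACSIN2, a membrane-bending protein of endocytosis (-1.43), ARHGAP19, a GTPase-activating protein (-1.43), VASN, a TGF-beta trap (-1.39), and WDFY2, an endosomal FYVE domain protein (-1.32, all log2 fold changes). PACSIN2 stood at 132, 133, 130.1, 124 and 133 rpm in siCTRL#1 and at 49.3, 38.3, 41.7 and 57.7 rpm in siVPS4B#2. WDFY2 stood at 22.6, 30.7, 15.7, 21.4 and 33.4 rpm and 9.87, 7.51, 8.37 and 7.96 rpm. All 12 falls kept their calls in every alternative tried, including both ways of discounting siCTRL#1 replicates 1 and 4.

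Several of the largest rises were in genes with few reads in siCTRL#1, and some differed widely between libraries. WNK1, a kinase that controls cation-chloride transport (GRCh37 chr12:861745-1020618), stood at 1.67, 1.91, 1.52, 1.87 and 2.54 rpm in siCTRL#1 and at 16, 15, 8.82 and 6.89 rpm in siVPS4B#2 (log2 fold change 2.11, SE 0.22, adjusted p = 8.07e-08). BST2, tetherin, an interferon-induced membrane protein that holds budding virions at the cell surface (chr19:17513748-17516439), stood at 12.7, 6.46, 3.38, 13.6 and 6.87 rpm in siCTRL#1 and at 103, 37.6, 13.8 and 15.9 rpm in siVPS4B#2 (log2 fold change 1.88, SE 0.33, adjusted p = 3.17e-04). In BST2 the spread was wide: replicate 1 lay far above the others, and replicates 3 and 4 lay close to the highest siCTRL#1 libraries.

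KRTAP3-1, a hair keratin-associated protein (chr17:39164773-39175576), stood at 0.167, 0.239, 0.845, 0.287 and 0.188 rpm in siCTRL#1, at or near the floor, and at 9.08, 4.94, 2.24 and 2.43 rpm in siVPS4B#2 (log2 fold change 2.02, SE 0.33, adjusted p = 1.23e-04). PRR15L rose from 2.01, 0.718, 0.845, 0.143 and 0.565 rpm to 7.36, 6.48, 2.69 and 3.88 rpm (log2 fold change 1.79, SE 0.25, adjusted p = 1.24e-05). SPP1, which encodes the secreted phosphoprotein osteopontin, stood at 5.69, 5.62, 11.5, 4.74 and 6.97 rpm in siCTRL#1 and at 13.8, 16.2, 24.8 and 18.7 rpm in siVPS4B#2 (log2 fold change 1.34, SE 0.21, adjusted p = 5.87e-05). These control levels were low, so their sizes depend on the value of 1 added before the log.

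The other rises of the 12 largest, on the log2 scale, were in VGF, a neuropeptide precursor (1.48), ANXA9, an annexin (1.47), MORN4 (1.33), GNG13, a G protein gamma subunit (1.23), CORO6, a coronin (1.21), TSPYL4 (1.2) and TRAPPC14, a subunit of the TRAPP vesicle tethering complex (1.19). Of the 12, 10 were also called higher against NT and 11 against siCTRL#2, where VGF had the opposite sign and was not called. TSPYL4 lost its call without any 1 of siVPS4B#2 replicates 1, 2 and 4 and siCTRL#1 replicates 3, 4 and 5 (adjusted p = 0.0858 without siCTRL#1 replicate 4), ANXA9 and TSPYL4 lost theirs with siCTRL#1 replicates 1 and 4 counted as 1 sample, and GNG13, ANXA9 and TSPYL4 with both left out. MYBPH, a myosin-binding protein, had a larger log2 fold change (2.44, adjusted p = 5.89e-04) but overlapped, with 1.5, 4.42, 15.2, 1.15 and 7.44 rpm in siCTRL#1 and 10.2, 32.9, 38.9 and 23.1 rpm in siVPS4B#2.

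**Figure D2:**
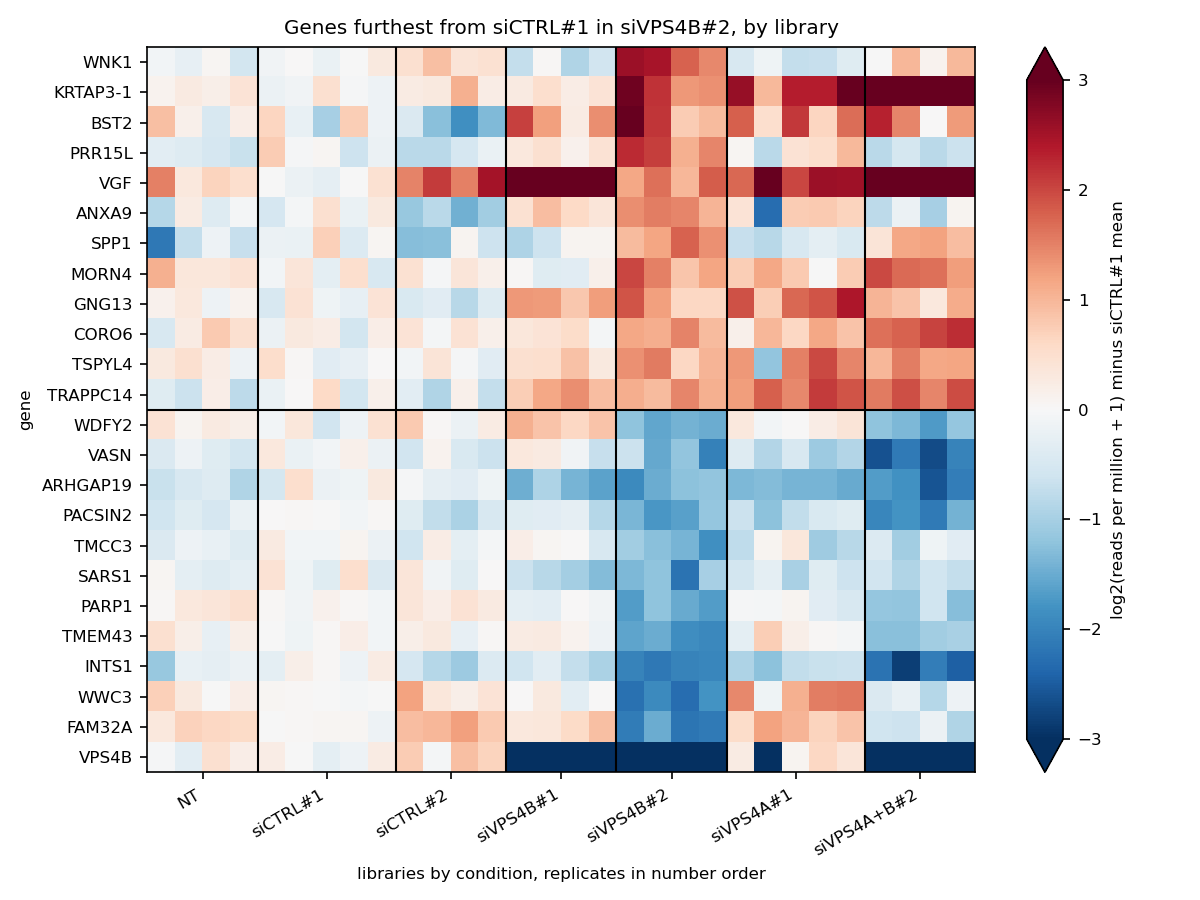
The 12 largest rises (upper rows) and 12 largest falls (lower rows) among called genes whose groups do not overlap, with 1 column per library grouped by condition and in replicate order. Colour is log2(rpm + 1) minus the siCTRL#1 mean, red above and blue below, ending at 3 in either direction. The blue block of siVPS4B#2 is missing in siVPS4B#1 for FAM32A, WWC3, TMEM43, PARP1 and WDFY2, and siVPS4A#1 replicate 2 has the blue of silenced VPS4B.

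The same duplex was also given with siVPS4A#1, in libraries that share none with siVPS4B#2 or siCTRL#1, so siVPS4A+B#2 against siVPS4A#1 gave a second reading of it in cells that also received siVPS4A#1. Of the 286 raised genes, 49 (17.1%) were also raised there and 21 lowered, against 6.74% and 5.03% of all genes. Of the 421 lowered genes, 72 (17.1%) were lowered there and 28 raised. The 72 shared falls were 11.3% of the 635 genes lowered in that comparison, and the 49 shared rises 5.76% of its 851 raised genes. Without siVPS4A#1 replicate 2, 50 of the raised genes were raised and 38 lowered, against 8.55% and 8.93% of all genes, and 81 of the lowered genes were lowered and 40 raised.

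Most of the 12 largest falls recurred in this second reading. All 12 had a negative value and 10 were called, and both counts include VPS4B, the target of the duplex. Also called were, among others, FAM32A (-1.46), WWC3 (-1.45), INTS1 (-1.5), WDFY2 (-1.44), TMEM43 (-1.29) and PARP1 (-0.94, log2 fold changes of siVPS4A+B#2 against siVPS4A#1). SARS1 (-0.21) and TMCC3 (-0.11) were not called. Without siVPS4A#1 replicate 2, 10 were again called, and the values were -1.37 for FAM32A, -1.82 for WWC3, -1.59 for INTS1, -1.51 for WDFY2, -1.14 for TMEM43 and -0.93 for PARP1, and TMCC3 was at 0.03. Of the 12 largest rises, 6 were raised, among them KRTAP3-1 (2.7), SPP1 (1.49), CORO6 (1.19) and WNK1 (1.04), and 2 were lowered, PRR15L (-0.88) and GNG13 (-0.78). Without that library these values were 2.35, 1.45, 1.28 and 1.08, and -1.17 and -1.10.

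The other VPS4B duplex gave a partly different picture. In siVPS4B#1 against siCTRL#2, which again shares no library, 94 of the 286 raised genes (32.9%) were raised and 13 lowered, against 12.7% and 8.48% of all genes. Of the 421 lowered genes, 67 (15.9%) were lowered and 42 (9.98%) raised. Among the 12 largest falls, 3 were called lower there: VPS4B, SARS1 (-0.93) and ARHGAP19 (-1.16). WDFY2 was raised (0.63), and FAM32A (-0.45), WWC3 (-0.54), INTS1 (0.07), TMEM43 (0.05) and PARP1 (-0.49) were not called. Among the 12 largest rises, 6 were raised, including BST2 (2.44), VGF (1.85), ANXA9 (1.69), GNG13 (1.66) and TRAPPC14 (1.5), and WNK1 was lowered (-1.1).

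Tested directly, siVPS4B#2 differed from siVPS4B#1 in 786 genes upward (6.22%) and 895 downward (7.09%). The siVPS4B#2 libraries enter both this test and the comparison with siCTRL#1. Of the 421 lowered genes, 211 (50.1%) were lower than under siVPS4B#1 as well, and of the 286 raised genes 74 (25.9%) were higher. FAM32A stood at 49.7, 50.6, 59.1 and 74.7 rpm under siVPS4B#1 (log2 difference -2.51, SE 0.16, adjusted p = 2.61e-13), and WDFY2 at 51.2, 44.5, 37.1 and 44.4 rpm (log2 difference -2.26, SE 0.18, adjusted p = 4.81e-11). WNK1 stood at 0.757, 1.93, 0.534 and 0.924 rpm under siVPS4B#1, no higher than in siCTRL#1 (log2 difference 2.61, SE 0.23, adjusted p = 2.73e-10).

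Part of the difference between the duplexes lay in genes that siVPS4B#2 left near the siCTRL#1 level. UBE2S, an E2 enzyme of the anaphase-promoting complex, stood at 515, 444, 743, 511 and 491 rpm in siCTRL#1, at 343, 446, 452 and 389 rpm under siVPS4B#2 and at 101, 76.3, 119 and 73.9 rpm under siVPS4B#1 (log2 difference 2.15, SE 0.18, adjusted p = 2.19e-10 between the duplexes). TRIR, at 329, 328, 352 and 262 rpm under siVPS4B#2, stood at 73.7, 82.5, 93.1 and 88.9 rpm under siVPS4B#1, and KLC2, a kinesin light chain, at 112, 85.1, 119 and 103 rpm against 20.1, 27.3, 19.4 and 22.6 rpm. PM20D2 was also higher under siVPS4B#2 than under siVPS4B#1, at 15.7, 17.6, 19.4 and 20 rpm against 4.24, 4.25, 3.47 and 4.93 rpm. With siCTRL#2 PM20D2 stood at 4.15, 3.31, 3.95 and 4.76 rpm, overlapping siVPS4B#1.

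In the other direction, TNFRSF6B, the decoy receptor DcR3 for FAS ligand, stood at 11.3, 14.8, 17.8 and 23.2 rpm under siVPS4B#2 and at 163, 141, 133 and 229.8 rpm under siVPS4B#1 (log2 difference -3.25, SE 0.28, adjusted p = 2.12e-10), and it was also lower than in siCTRL#1 (45.8, 33.1, 35.3, 35.5 and 59.2 rpm; log2 fold change -1.14, SE 0.27, adjusted p = 0.00658). With siCTRL#2 TNFRSF6B stood at 137, 191, 108 and 192 rpm, overlapping siVPS4B#1. NT5E, the ecto-nucleotidase CD73, stood at 20.4, 17.5, 23.6 and 19.4 rpm against 74.5, 91.5, 130.5 and 164 rpm (log2 difference -2.40, SE 0.32, adjusted p = 1.69e-06). ITGB4, integrin beta 4, was lower by -2.37 on the log2 scale. VGF, one of the largest rises against siCTRL#1, was raised further by siVPS4B#1, at 220.3, 234, 216 and 522 rpm (log2 difference -2.34, SE 0.29, adjusted p = 3.17e-07). In siVPS4B#2 VGF stood at 45.3, 64.1, 40.1 and 71.7 rpm. Its siCTRL#2 levels were higher in mean, at 56.6, 88.1, 58 and 114.8 rpm.

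Genes were then read by pathway in 31 lists, which together with 4 marker lists held 915 genes, 79 of them called. Counts in lists for siVPS4B#2 against siCTRL#1 are to be read against 2.26% of all genes raised and 3.33% lowered. Those against NT are to be read against 6.58% and 7.17%, and those against siCTRL#2 against 11.6% and 8.13%. The lists with the most called members were the ATF4 targets, the interferon-stimulated genes and the replication-dependent histones.

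ATF4 is the transcription factor of the integrated stress response, translated when amino acids run short or the endoplasmic reticulum is stressed, and its targets make, import and charge amino acids. Of 33 ATF4 targets and amino acid synthesis genes, 13 fell and none rose, with a median log2 fold change of -0.58. ASNS, asparagine synthetase, stood at 366, 143, 84.2, 319 and 121 rpm in siCTRL#1 and at 168, 49, 30.3 and 82.7 rpm in siVPS4B#2 (log2 fold change -1.55, SE 0.28, adjusted p = 5.28e-04). PCK2, the mitochondrial phosphoenolpyruvate carboxykinase, stood at 179, 82.3, 56.9, 194 and 70.2 rpm and 142, 28.2, 22.4 and 33.2 rpm (log2 fold change -1.47, SE 0.29, adjusted p = 0.00142). PHGDH, the first enzyme of serine synthesis, stood at 578, 356, 219.5, 592 and 272 rpm and 314, 134, 104 and 152 rpm (log2 fold change -1.28, SE 0.25, adjusted p = 8.71e-04).

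In these genes siCTRL#1 replicates 1 and 4 lay highest, and siVPS4B#2 replicate 1 overlapped the lower controls. GPT2, an alanine aminotransferase, also fell (log2 fold change -1.25, SE 0.19, adjusted p = 2.98e-05). The other 9 called members, listed after their values were seen, were the enzymes or regulators PSAT1 (-0.72), CHAC1 (-1.33), TRIB3 (-1.41), DDIT4 (-1.07) and NUPR1 (-1.44) and the amino acid transporters SLC7A5 (-1.07), SLC3A2 (-1.02), SLC7A1 (-0.86) and SLC7A11 (-1.22, log2 fold changes), the last also an NRF2 target.

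Within each of the 4 batches as labelled all 13 called members were lower in siVPS4B#2 than in siCTRL#1. These same libraries picked the 13, so their levels here are no separate support. Over all 33 members of the list, the numbers lower were 27, 27, 30 and 30 in batches of replicates 1 to 4. The medians of the whole list were -0.29, -0.68, -0.48 and -1.28 in the same order. Across batches the groups overlapped for each of the 13. The mean log2 level of the 13 was 8.51, 7.42, 6.93, 8.45 and 7.02 in siCTRL#1 replicates 1 to 5, 7.92, 6.25, 5.89 and 6.36 in siVPS4B#2 replicates 1 to 4, and 8.10, 7.51, 6.89 and 7.21 in NT. Replicate 1 was thus high in each of these conditions, and siCTRL#1 replicate 4 stood with them. The value of -1.28 rests on siCTRL#1 replicate 4, although siVPS4B#2 replicate 4 lay below siCTRL#1 replicate 5 as well. Without siCTRL#1 replicate 4, 6 members were called and the median was -0.48. Without the replicate block 2 were called, with siCTRL#1 replicates 1 and 4 counted as 1 sample 1 was called, and with both left out 2, with medians of -0.52, -0.43 and -0.45.

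The counts against the other controls do not use siCTRL#1. Against NT 14 members were lower and none higher (median -0.56), and against siCTRL#2 4 were lower and none higher (median -0.12), where 8.13% of all genes were lower. In siVPS4B#1 against siCTRL#2, 9 members fell and none rose. Against siCTRL#1, which that count leaves out, siVPS4B#1 had 22 members lower and none higher. By direct test siVPS4B#2 and siVPS4B#1 differed in 1 member. In siVPS4A+B#2 against siVPS4A#1 the direction was the opposite, with 13 members higher and none lower, or 16 and none without siVPS4A#1 replicate 2. The siVPS4A#1 libraries started low: PHGDH stood at 51, 51.8, 47.7, 35 and 40.5 rpm with siVPS4A#1 and at 156, 97.1, 99.1 and 71.6 rpm with both duplexes, all below the lowest siCTRL#1 library. The difference between both effects, tested by the interaction contrast described at the end, was above 0 for 19 members and below 0 for none, or 22 and none without that library.

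The promoters of called members were searched for the composite element that ATF4 binds with C/EBP factors, written TGATGNAA, on both strands of the 300 bases from 250 before to 50 after each start in RefSeq (GRCh38.p14). Of the 13 called members 10 had a promoter in the table and 4 held the element (ASNS, CHAC1, SLC3A2 and SLC7A1), as did 4 of 15 other members of the list and 3.62% of 35116 promoters. Stretches of 60 bases from the promoters of ASNS (chr7:97872429-97872488, minus strand) and CHAC1 (chr15:40953250-40953309, plus strand) show it in capitals, in CHAC1 as the reverse complement. A match of letters is not a measured binding site.
ASNS: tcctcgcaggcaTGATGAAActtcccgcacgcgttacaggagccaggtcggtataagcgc
CHAC1: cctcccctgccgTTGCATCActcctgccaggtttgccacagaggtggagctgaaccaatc

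Neighbouring lists moved little. Of 20 cytosolic aminoacyl-tRNA synthetases, SARS1 and YARS1, the tyrosyl enzyme (log2 fold change -0.82, SE 0.24, adjusted p = 0.0284), fell and none rose. SARS1 stood at 328, 219, 187, 339.9 and 178 rpm in siCTRL#1 and at 94.1, 103, 51.1 and 121 rpm in siVPS4B#2 (log2 fold change -1.5, SE 0.18, adjusted p = 5.37e-07). Without siCTRL#1 replicate 4 only SARS1 was called. Of 26 chaperones and stress genes of the endoplasmic reticulum, CRELD2 (log2 fold change -0.86, SE 0.18, adjusted p = 0.00231) and HERPUD1 (log2 fold change -0.82, SE 0.23, adjusted p = 0.0224) fell and none rose, and without siCTRL#1 replicate 4 HERPUD1 was not called.

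Interferon-stimulated genes restrict viruses and are induced by interferons. Of 36 such genes, 8 rose and none fell, with a median log2 fold change of 0.33. Besides BST2, IFI6 stood at 97.8, 94.6, 85.3, 105 and 108 rpm in siCTRL#1 and at 304, 256, 123 and 129 rpm in siVPS4B#2 (log2 fold change 0.94, SE 0.18, adjusted p = 6.75e-04). IRF9, the DNA-binding subunit of the interferon response factor ISGF3, stood at 4.01, 12.2, 9.29, 7.32 and 12.1 rpm and 25.2, 17.7, 12.3 and 18.1 rpm (log2 fold change 1.13, SE 0.26, adjusted p = 0.00506). DTX3L, a ubiquitin ligase, stood at 15.7, 17.6, 13.3, 13.6 and 13.3 rpm and 27.9, 25.3, 20.8 and 21.4 rpm (log2 fold change 0.67, SE 0.14, adjusted p = 0.0026).

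In all 4 of these genes siVPS4B#2 replicate 1 was the highest library and no libraries overlapped. The further 4, listed after their values were seen, were OASL (1.11), SP110 (0.84), IFIT5 (0.78) and ISG15 (0.71). ISG15, a ubiquitin-like modifier, stood at 143, 90.2, 189, 129 and 95.7 rpm in siCTRL#1 and at 323, 241, 186 and 143 rpm in siVPS4B#2, with overlap. Within batches the list's median was 0.63, 0.29, 0.16 and 0.21, and 6 members were called without siCTRL#1 replicate 4, 7 without the replicate block, 5 without siVPS4B#2 replicate 1 and 4 with siCTRL#1 replicates 1 and 4 left out.

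Against NT 12 members were higher and none lower, as against siCTRL#2, where 6.58% and 11.6% of all genes were higher. Under siVPS4B#1 12 were higher against siCTRL#2 (12.7% of all genes) and 8 against siCTRL#1, and none was lower. In siVPS4A+B#2 against siVPS4A#1 11 were higher and 1 lower, or 12 and 1 without siVPS4A#1 replicate 2. Of 20 genes of MHC class I presentation limma, DESeq2 and edgeR called 0, and 4 had an unadjusted p under 0.05. TAP1, a subunit of the peptide transporter, stood at 52.2, 53.3, 59.6, 47.6 and 51.9 rpm in siCTRL#1 and at 75, 65.6, 69.5 and 78.2 rpm in siVPS4B#2, without overlap but under the fold required (log2 fold change 0.44, SE 0.12, adjusted p = 0.0153).

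The interferon element, searched as GAAANNGAAA on both strands of the same 300 bases, was present in 5 of the 7 called members with a promoter (BST2, DTX3L, IFI6, IFIT5 and ISG15), in 14 of 21 other members and in 3.57% of 35116 promoters. In the stretches from BST2 (chr19:17405713-17405772, minus strand) and ISG15 (chr1:1013372-1013431, plus strand), both GRCh38.p14, the capitals mark 2 overlapping copies. Most members that were not called held the element as well.
BST2: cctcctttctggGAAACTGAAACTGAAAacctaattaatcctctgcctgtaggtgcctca
ISG15: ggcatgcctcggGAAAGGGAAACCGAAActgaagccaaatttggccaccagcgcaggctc

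Lists of cell cycle genes had medians below 0 against siCTRL#1, and 2 of the 3 had medians above 0 against siCTRL#2. Called lower against siCTRL#1 were 7 of 40 histone, 5 of 46 mitotic and 3 of 54 replication genes, against 3.33% of all genes. Of 40 replication-dependent histone genes, whose transcripts are made in S phase, 7 fell and 1, H3C4, rose (log2 fold change 0.73, SE 0.20, adjusted p = 0.0209), with a list median of -0.41. H4C8 stood at 92.7, 61.2, 121, 88 and 66.2 rpm in siCTRL#1 and at 31.8, 34, 62.5 and 44.2 rpm in siVPS4B#2 (log2 fold change -1.12, SE 0.26, adjusted p = 0.00473). H2BC21 (-0.73), H2AC11 (-0.74) and H2BC17 (-0.91) were the others with the smallest p-values. Without siCTRL#1 replicate 4, 2 were called lower. Histone genes are near-identical copies, so reads may have been split between them. The direction of the median depended on the control. Against NT 24 of the 40 were lower and 3 higher (median -0.82). Against siCTRL#2 7 were higher and none lower (median 0.35), where 11.6% and 8.13% of all genes were.

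Of 46 genes of mitosis and G2/M, 5 fell and none rose (median -0.38). BIRC5, survivin, a subunit of the chromosomal passenger complex, stood at 219, 209, 261, 223 and 224 rpm in siCTRL#1 and at 124, 123, 128 and 154 rpm in siVPS4B#2 (log2 fold change -0.90, SE 0.19, adjusted p = 0.00222). NUSAP1, a spindle protein, stood at 124, 183, 154, 137 and 195 rpm and 65, 72.8, 73.8 and 115 rpm (log2 fold change -0.93, SE 0.21, adjusted p = 0.00396). ECT2, an exchange factor that starts cytokinesis (-0.92), FOXM1, a transcription factor of G2/M genes (-0.78), and NDC80, of the kinetochore (-0.65), were the others, NDC80 named after its value was seen. Without siCTRL#1 replicate 4, 4 were called lower. Against NT 7 were lower and none higher (median -0.28), and against siCTRL#2 9 were lower and 1 higher (median -0.33).

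Of 54 genes of DNA replication and homologous recombination 3 fell and 1 rose (median -0.21). GINS2, of the replicative helicase, stood at 83.1, 61, 80.6, 67 and 62.9 rpm in siCTRL#1 and at 35.5, 44.6, 49.5 and 50.3 rpm in siVPS4B#2 (log2 fold change -0.70, SE 0.17, adjusted p = 0.00599), RBBP8 (CtIP) fell by 0.66 and RAD54L by 0.67 on the log2 scale, and CCNE1, cyclin E1, rose (log2 fold change 0.75, SE 0.18, adjusted p = 0.00664). RBBP8 and RAD54L lost their calls without siCTRL#1 replicate 4. Against siCTRL#2 the list's median was above 0 (0.20), with 9 members higher and 1 lower, where 11.6% and 8.13% of all genes were. The duplexes differed here by direct test: 23 of the 46 mitotic genes and 36 of the 54 replication genes were higher under siVPS4B#2 than under siVPS4B#1, and none was lower, against 6.22% and 7.09% of all genes. In siVPS4B#1 against siCTRL#2, 37 mitotic and 22 replication genes fell and none rose. Against siCTRL#1, 40 mitotic and 45 replication genes were lower under siVPS4B#1 and none was higher.

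CDKN1A, the cyclin-dependent kinase inhibitor p21, which halts the cell cycle, rose. It stood at 632, 756, 836, 598 and 721 rpm in siCTRL#1 and at 1259, 1040, 1281 and 1090 rpm in siVPS4B#2 (log2 fold change 0.78, SE 0.18, adjusted p = 0.00476). TRIAP1, a mitochondrial lipid transfer protein that restrains apoptosis, stood at 38.8, 39.4, 47, 33.6 and 47.6 rpm and 60.5, 84.5, 84 and 66.1 rpm (log2 fold change 0.86, SE 0.18, adjusted p = 0.00186). Neither gene overlapped between the groups, and both were still called without siCTRL#1 replicate 4. NT libraries also lay below siVPS4B#2 for both genes. In siCTRL#2 both overlapped siVPS4B#2, at 881, 1123, 840 and 978 rpm for CDKN1A and 51.4, 60.7, 74.8 and 60.1 rpm for TRIAP1. Under siVPS4B#1 CDKN1A stood at 1142, 1162, 1280 and 1132 rpm and TRIAP1 at 28.3, 33.1, 46.2 and 40.8 rpm. CCNG1, cyclin G1, also rose (log2 fold change 0.62, SE 0.17, adjusted p = 0.0193), with overlap, and was not called without siCTRL#1 replicate 4 (adjusted p = 0.0524).

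Among 18 BCL2 family genes BCL2 and BCL2L13 fell and BMF rose. BCL2, which restrains mitochondrial apoptosis, stood at 4.85, 4.07, 3.21, 1.72 and 3.01 rpm in siCTRL#1 and at 0.47, 0.823, 1.2 and 0.874 rpm in siVPS4B#2 (log2 fold change -1.26, SE 0.23, adjusted p = 6.12e-04). BMF, a BH3-only protein, stood at 25.1, 15.6, 15.7, 20.9 and 11.8 rpm and 94.3, 39.9, 29.8 and 24.9 rpm (log2 fold change 1.13, SE 0.29, adjusted p = 0.0134), with replicate 1 far above the rest and replicate 4 inside the siCTRL#1 range. BCL2L13 fell by 0.67 on the log2 scale. BAK1 (0.18), BIK (0.17) and BCL2L11 (0.05) were not called (adjusted p = 0.529, 0.662 and 0.896). Of 26 death receptors, caspases and necroptosis genes, 2 fell and none rose, CFLAR, an inhibitor of death receptor signalling, among them (log2 fold change -0.71, SE 0.21, adjusted p = 0.0336), and CFLAR was not called without siCTRL#1 replicate 4.

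The inflammatory transcripts that the study follows were not called in the main fit. CXCL8 stood at 3.35, 2.87, 3.55, 3.44 and 3.39 rpm in siCTRL#1 and at 2.19, 4.53, 3.74 and 3.59 rpm in siVPS4B#2 (log2 fold change -0.14, SE 0.67, adjusted p = 0.93). CXCL2 stood at 1.0, 1.44, 2.2, 0.718 and 2.17 rpm and 0.783, 2.26, 2.24 and 1.65 rpm (log2 fold change 0.06, SE 0.39, adjusted p = 0.951). BIRC3 (-0.07), NFKBIA (-0.29) and TNFAIP3 (-0.46), feedback targets of NF-kB, had adjusted p-values of 0.959, 0.567 and 0.453.

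IL18 stood at 128, 160.3, 129.6, 120.4 and 136 rpm in siCTRL#1 and at 179, 291, 179 and 186 rpm in siVPS4B#2, and its libraries did not overlap, but its adjusted p missed the threshold (log2 fold change 0.58, SE 0.22, adjusted p = 0.0987). IL18 gained a call in 1 of the alternative settings. Of 26 NF-kB subunits, feedback genes and targets, ICAM1, an adhesion molecule, fell (log2 fold change -0.83, SE 0.18, adjusted p = 0.0026) and none rose. Of 19 cytokines and chemokines EBI3, a subunit of interleukins 27 and 35, rose (log2 fold change 0.59, SE 0.17, adjusted p = 0.0312), from levels under 1 rpm, and was not called without siCTRL#1 replicate 4 (adjusted p = 0.0642). Standard errors of the strongest NF-kB genes were wide in the model (0.67 for CXCL8 and 0.53 for BIRC3), which shares 1 spread over all 38 libraries, the library labelled siVPS4A#1 replicate 2 among them.

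NQO1, a quinone reductase and NRF2 target, was the clearest single rise among oxidative stress genes, at 392, 295, 302, 361 and 264 rpm in siCTRL#1 and 686, 676, 468 and 616 rpm in siVPS4B#2 (log2 fold change 0.89, SE 0.12, adjusted p = 6.64e-06). Of 25 NRF2 targets 3 rose, with ABCC2, a conjugate exporter (0.74), and FTH1, ferritin heavy chain (0.59), and SLC7A11 fell. NQO1 alone kept its call without siCTRL#1 replicate 4. HMOX1, haem oxygenase 1, stood at 42.8, 41.4, 56.3, 39.9 and 48.4 rpm in siCTRL#1 and at 74.5, 71.5, 90 and 60.3 rpm in siVPS4B#2, without overlap (log2 fold change 0.67, SE 0.26, adjusted p = 0.111).

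Endosomal and lysosomal genes, nearest to the known site of VPS4 function, changed in few members. Of 53 lysosomal hydrolases, membrane proteins and V-ATPase subunits 3 rose and none fell (median 0.14). NEU1, the lysosomal sialidase, stood at 69.2, 57.5, 72.3, 71.6 and 57.9 rpm in siCTRL#1 and at 149.9, 129, 114 and 84.5 rpm in siVPS4B#2 (log2 fold change 0.77, SE 0.15, adjusted p = 0.0011). ATP6V0A1 (0.74) and ATP6V0D1 (0.72), subunits of the proton pump, also rose, the latter with an adjusted p of 0.0709 without siCTRL#1 replicate 4. Without that library 2 were called higher and 1 lower. Against siCTRL#2 17 members were higher under siVPS4B#2 and 1 lower, where 11.6% and 8.13% of all genes were. Under siVPS4B#1 18 were higher and none lower against siCTRL#2, where 12.7% and 8.48% of all genes were. Against siCTRL#1 siVPS4B#1 had 9 higher and 1 lower. Against NT siVPS4B#2 had 11 higher and none lower.

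Of 37 genes of lysosomal mTORC1 nutrient sensing 4 rose and none fell. CASTOR1, a cytosolic arginine sensor that restrains mTORC1, stood at 9.03, 8.73, 11.8, 10.8 and 11.3 rpm in siCTRL#1 and at 18.8, 27.8, 20.3 and 17.4 rpm in siVPS4B#2 (log2 fold change 1.0, SE 0.18, adjusted p = 4.14e-04). It was lower in NT, at 2.28, 2.01, 3.59 and 4.01 rpm, than in either transfected group. SESN3 (0.77), SESN1 (0.74) and WDR24, of the GATOR2 complex (0.60), had adjusted p-values of 0.0318 to 0.0431, and only CASTOR1 was called without siCTRL#1 replicate 4. Of 35 autophagy genes ATG4A, a protease of ATG8 proteins, fell (log2 fold change -0.85, SE 0.18, adjusted p = 0.00211), and of 53 Rab GTPases and sorting nexins SNX9, a sorting nexin of clathrin endocytosis, fell (log2 fold change -0.62, SE 0.17, adjusted p = 0.0164), though not without siCTRL#1 replicate 4 (adjusted p = 0.0815).

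Growth factor and early response lists held falls in signalling genes. Of 32 AP-1 and immediate-early genes 4 fell and none rose (median -0.25). DUSP4, a phosphatase of MAP kinases that is itself induced by ERK, stood at 156, 180.1, 175, 144 and 176 rpm in siCTRL#1 and at 88.5, 69.6, 91.3 and 70.8 rpm in siVPS4B#2 (log2 fold change -1.01, SE 0.14, adjusted p = 1.42e-05). Under siVPS4B#1 DUSP4 lay the other way, at 306, 347, 296 and 306.5 rpm, above every siCTRL#1 library. Its siCTRL#2 levels overlapped these, at 340, 308.5, 248 and 296 rpm. FOSB (-0.83), FOSL2 (-0.65) and CCN2 (-0.73) had adjusted p-values of 0.0146 to 0.0464, and FOSL2 was not called without siCTRL#1 replicate 4. CCN2 stood at 10, 11.4, 11.8 and 16.2 rpm in siVPS4B#2. These levels overlapped NT (13.4, 6.84, 5.57 and 8.45 rpm) and siCTRL#2 (11.6, 9.94, 12.8 and 10.6 rpm). In the EGFR family and ligands, EREG, the ligand epiregulin, stood at 251, 279.9, 232, 249 and 289 rpm in siCTRL#1 and at 495, 490, 554 and 551 rpm in siVPS4B#2 (log2 fold change 0.99, SE 0.23, adjusted p = 0.00599), while EGFR itself stood at 144, 135, 110.5, 138 and 122 rpm and 103, 104, 67.7 and 62.3 rpm (log2 fold change -0.70, SE 0.17, adjusted p = 0.00751).

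Ligand and receptor thus moved in opposite directions against siCTRL#1, each without overlap between libraries; the other 12 genes of that list were not called. EREG was not called against NT, where it stood at 636, 294, 312 and 256 rpm, the first above every siVPS4B#2 library, but was called higher against siCTRL#2, and EGFR was lower against both. Under siVPS4B#1, however, EGFR stood at 223, 231, 196.5 and 250 rpm, above every siCTRL#1 library. EREG stood there at 193, 272, 232.5 and 319.5 rpm and overlapped siCTRL#1. Of 24 Wnt and beta-catenin targets NOTUM, a secreted Wnt deacylase, fell (log2 fold change -1.21, SE 0.31, adjusted p = 0.0108), as did MYC (log2 fold change -0.62, SE 0.15, adjusted p = 0.00799), and CD44, a cell surface glycoprotein, rose (log2 fold change 0.65, SE 0.20, adjusted p = 0.0396). NOTUM was the only one of these called without siCTRL#1 replicate 4, as MYC then moved by under 1.5-fold. NOTUM stood at 16, 33.3, 18.7 and 41.8 rpm in siVPS4B#2. These levels overlapped NT (33.4, 12.7, 40.7 and 20.6 rpm) and siCTRL#2 (17.8, 17.05, 13.3 and 15.9 rpm). CD44 stood at 211, 186, 174 and 142 rpm in siVPS4B#2, above every siCTRL#2 library. Every NT library was higher still for CD44, at 251, 277.5, 212 and 224 rpm. Of 37 genes of TGF-beta signalling, matrix and adhesion 4 fell and none rose: SNAI1 (-0.68), ITGA2 (-0.62), CCN2 and ANKRD1, the last at 1.0, 1.44, 1.35, 1.15 and 1.04 rpm in siCTRL#1 and at most 0.598 rpm in siVPS4B#2. ITGA2 was not called without siCTRL#1 replicate 4.

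Several lists held 1 or no called gene. PFKP, platelet phosphofructokinase, fell among 31 glycolysis and hypoxia genes (log2 fold change -0.62, SE 0.19, adjusted p = 0.0328), TNRC6C, a GW182 protein of miRNA silencing, among 16 genes of small RNA silencing (log2 fold change -0.85, SE 0.17, adjusted p = 0.00152), and KRTAP2-3 rose among 34 keratins and epithelial junction genes (log2 fold change 1.09, SE 0.35, adjusted p = 0.0472). Without siCTRL#1 replicate 4 neither PFKP (adjusted p = 0.0765) nor KRTAP2-3 (adjusted p = 0.161) was called. In limma 0 of 25 genes of sterol synthesis were called (among the lowest p-values SC5D, 0.43), 0 of 16 of fatty acid synthesis (SCD, 0.49, and ELOVL1, 0.33), 0 of 48 of nucleolar ribosome biogenesis (MYBBP1A, -0.42, and GNL3, -0.45) and 0 of 22 of cytosolic heat shock (DNAJB6, -0.54, and DNAJA1, 0.38). An unadjusted p under 0.05 was found in 5, 2, 8 and 4 of them, and DESeq2 and edgeR called genes of these lists only in ribosome biogenesis, 1 lower each. MYC was the only one of 12 genes of its network that was called.

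The markers of the labelled cell type were present. Of 15 markers of colorectal epithelium 9 were listed, with a summed level of 4650 to 7293 rpm in siCTRL#1 and 5523 to 7442 rpm in siVPS4B#2, and ELF3, an epithelial transcription factor, rose (log2 fold change 0.61, SE 0.16, adjusted p = 0.0169). Of 10 fibroblast markers 2 were listed, COL1A1 at a mean of 25.8 rpm in siCTRL#1 and 28.1 rpm in siVPS4B#2 and PDGFRB at or near the floor (summed 15.8 to 31.9 and 22.2 to 33.3 rpm). Of 14 leukocyte markers 5 were listed, summed at 9.81 to 13.1 and 11.8 to 13.4 rpm, mostly CD68, and of 7 endothelial markers 4, summed at 0.507 to 1.67 and 0.150 to 1.26 rpm. Of these last 3 lists limma, DESeq2 and edgeR called 0 genes, and 1, of the leukocyte list, had an unadjusted p under 0.05. In bulk RNA, fewer cells that carry a transcript and less of it per cell cannot be told apart.

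Finally, the effect of siVPS4B#2 alone was tested against its effect on top of siVPS4A#1 by an interaction contrast, which was above 0 where the duplex raised a gene more, or lowered it less, in cells that also received siVPS4A#1. A total of 733 genes (5.81%) had a positive and 492 (3.9%) a negative difference. Without siVPS4A#1 replicate 2 these were 1217 (9.64%) and 1090 (8.63%). HMOX1 had the largest positive difference, 4.33 (SE 0.36, adjusted p = 8.14e-10): it stood at 66.5, 335, 94.4, 96.6 and 102 rpm with siVPS4A#1 and at 2660, 4357, 5447 and 3183 rpm with both duplexes.

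BIRC3 followed with 3.90 (SE 0.73, adjusted p = 7.28e-04) and TNFRSF9, the co-stimulatory receptor 4-1BB, with 3.70 (SE 0.80, adjusted p = 0.00325). In both the library labelled siVPS4A#1 replicate 2 lay far above the other siVPS4A#1 libraries, at 274 rpm for BIRC3, and without it the differences were 4.90 and 4.79. ASNS differed by 3.43 (SE 0.39, adjusted p = 1.33e-06): siVPS4B#2 lowered it alone and raised it with siVPS4A#1, from 39.1, 35.6, 22.1, 14.1 and 11.2 to 122, 88, 91.9 and 81.4 rpm. At the other end were MYBPH, -3.73 (SE 0.62, adjusted p = 2.48e-04), TMT1A, a methyltransferase, -3.14 (SE 0.42, adjusted p = 1.51e-05), PRR15L, -2.66 (SE 0.35, adjusted p = 1.47e-05), and SPARC, a matrix protein, -2.63 (SE 0.78, adjusted p = 0.0266). TMT1A stood at 4.52, 4.78, 7.1, 2.58 and 4.14 rpm in siCTRL#1 and 12.5, 13.1, 7.77 and 11.2 rpm in siVPS4B#2, and at 8.51, 1.62, 7.21, 8.95 and 9.46 rpm with siVPS4A#1 and 1.02, 0.861, 0.32 and 1.21 rpm with both.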

How the data were processed

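HCT116 transcripts were amplified with an Ion AmpliSeq panel and sequenced on an Ion Proton instrument. Per the labels and the study's methods, the authors aligned reads to the panel's hg19 transcripts with TMAP and counted them with HTSeq-count 0.6.0, and tested genes with DESeq2 1.18.1. The authors deposited a signal for each of 12627 genes, namely what share of a library's reads fell on it. The study's methods set a minimum of 10 reads for a gene to be tested and dropped non-coding genes from its list of changed genes; whether these filters gave the 12627 genes, and how counts became shares, is not given in the sources used here. Whole reads were recovered from the smallest step of each library; 47.7% of values carried enough digits to be placed within 0.1 read, and 99.99% of these were whole. No column was left unmapped. Totals were 669257 to 11035293 reads in the 38 libraries.

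Reads were scaled to 1000000 per library with TMM factors (edgeR 4.0.16), 1 was added and log2 taken. limma 3.58.1 (R 4.3.3) was fitted with an intensity trend to all 38 libraries, with condition and replicate number as a block, since the labels give each number its own batch. Residuals of same-numbered libraries correlated with a mean r of 0.17 (145 pairs) against -0.08 (558 pairs); for siVPS4B#2 and siCTRL#1 replicates 1 to 4 r was 0.48, -0.01, 0.48 and -0.39. On simulated data for siVPS4B#2 against siCTRL#1 (12627 genes), limma recovered 91 of 100 genes changed 2-fold and all 100 changed 3-fold, with 7 false calls among unchanged genes. The simulated libraries were independent and had no batch differences, near-alike libraries or doubtful labels, and only genes above a set level were changed. These figures therefore do not measure recovery or false calls in the real libraries. DESeq2 1.42.0, edgeR, other scalings, filters and left-out libraries were alternatives.

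The part described and all lists were chosen with earlier results of these data known. Named were VPS4A and VPS4B, the 12 largest called rises and falls without overlap between libraries, of each list up to 4 called members with the smallest p-values (or 2 uncalled ones), the 6 largest differences from siVPS4B#1 each way, the 4 largest interactions each way and 10 genes the study names. Genes named outside this rule are marked in the text, apart from SLC7A11, H3C4 and TNFRSF6B, which enter by another list or by their count. The study describes its RNA-Seq values as means of independent experiments, which the labels mark by batch letters, and p-values measure the spread between these libraries. Promoters are RefSeq, GRCh38.p14, and gene positions are GRCh37. Some genes and 1 gene list, from which CDKN1A, TRIAP1 and CCNG1 are named, are not reported here.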

Additional observations from a re-analysis of the deposited data

Results flagged for a closer look

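In 2 of 50 groups of 4 or 5 libraries, 1 library lay far from the others, where chance gives about 1 group in 20. FAM32A stood at 13.4 rpm in siVPS4B#2 replicate 2, with the nearest library at 8.46 rpm, still below every siCTRL#1 library. KRTAP3-1 stood at 0.845 rpm in siCTRL#1 replicate 3, with the nearest at 0.287 rpm, a level of few reads.

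The effect of siVPS4B#2 alone differed from its effect with siVPS4A#1 in the 8 genes named for the largest interactions, 4 each way. The interaction contrast itself picked these genes, so their differences are no separate support, and other genes also differed by it. The log2 differences were 4.33 for HMOX1, 3.90 for BIRC3, 3.70 for TNFRSF9 and 3.43 for ASNS, and -3.73 for MYBPH, -3.14 for TMT1A, -2.66 for PRR15L and -2.63 for SPARC. Without siVPS4A#1 replicate 2 they were 4.75, 4.90, 4.79 and 3.63, and -4.32, -3.57, -2.93 and -3.57.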

How the results depend on the processing

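No called result changed direction under any alternative. The count of raised genes in siVPS4B#2 against siCTRL#1 was 188 to 346 and that of lowered genes 299 to 433 when 1 library was left out; the lowest were without siVPS4B#2 replicate 1 (188 raised) and without siCTRL#1 replicate 4 (204 raised, 299 lowered). In alternatives chosen after seeing the data, 146 and 231 genes were called with siCTRL#1 replicates 1 and 4 counted as 1 sample without the block, and 117 and 181 with both left out. Without the replicate block the counts were 214 and 312. Scaling by total reads gave 234 and 475, moving the raised share of calls from 40.5% to 33.0%. In siVPS4A+B#2 against siVPS4A#1, fitted to the compared conditions only, 12 genes were called, and leaving out 1 library gave 1229 to 2207. Total reads gave 503 higher and 1024 lower there and DESeq2 830 and 1058, against 851 and 635. The interaction gave 379 calls in the compared conditions only and 892 to 2307 with 1 library left out, the highest without siVPS4A#1 replicate 2. It gave 485 higher and 650 lower with total reads and 897 and 912 with DESeq2, against 733 and 492. The causes were not tested. Leaving out 1 library gave 1459 to 1688 calls against NT, 2264 to 2492 against siCTRL#2, 1370 to 1617 against siVPS4B#1 and 2387 to 2678 for siVPS4B#1 against siCTRL#2, VPS4B log2 fold changes of -3.35 to -3.09 and VPS4A ones of -0.05 to 0.18. Of the values of named genes under alternatives, 2260 stayed on their side of the threshold, 284 lost the call and 5 gained one. Counting error is largest in genes with few reads, and 164 called genes had means under 10 rpm in both groups.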
